A study of Mus musculus with 4 samples.

Results

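The genes described are the 6 galectin genes Lgals1, Lgals2, Lgals3, Lgals4, Lgals8 and Lgals9, of 54838 genes in the files. They were chosen by gene symbol with their counts, TPM and KO against NC differences already known, so these values are given as a description with no p-value. Messenger RNA was measured in 4 cultures of Hepa1-6, a mouse hepatocellular carcinoma line. NC 1 and NC 2 carry the genotype label wild type for Acvr2a, a type II activin receptor gene, and KO 1 and KO 2 carry the label knockout. The KO cells are described as subclones. No treatment, time or further allele is given, and nothing states which subclone a KO library came from or that cultures were grown apart, so p-values measure only the spread between these samples, which may be technical.

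Galectins are small lectins that bind beta-galactoside sugars on glycoproteins and glycolipids. They are made in the cytosol without a signal peptide and leave the cell by an unconventional route, so they act outside cells, where they cross-link glycoproteins and signal to T cells, and inside cells, where some of them mark ruptured vesicles by binding the sugars these expose. The family is sorted by how sugar-binding domains are arranged: prototype galectins hold a single domain (galectin-1, galectin-2), the chimera galectin-3 joins a single domain to a flexible tail, and tandem-repeat galectins join a pair of different domains by a linker (galectin-4, galectin-8, galectin-9). Galectin-1 and galectin-3 are often abundant in hepatocellular carcinoma, and galectin-9 is known as a ligand of the T-cell receptor TIM-3, encoded by Havcr2.

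Library totals lay between 11597923 and 13910582 counts, and 12510 genes passed a filter on low counts. The RNA of the targeted gene did not separate the groups: Acvr2a had 81 and 108 counts for NC against 75 and 97 for KO, which is -0.21 on the log2 scale with SE 0.20 (edgeR quasi-likelihood, adjusted p = 0.433), and KO and NC below are the libraries so labelled. Of the hepatocyte markers, Afp, Alb, Krt8 and Krt18 had at least 1507 counts in each library, while Ttr had at most 1 and Apoa1 between 17 and 39. Of the 8 hepatocyte markers 7 were tested: Afp (log2 fold change -1.21, edgeR adjusted p = 1.01e-10) and Hnf4a (-0.995, adjusted p = 4.27e-09) fell in KO, Alb rose (0.41, adjusted p = 0.00224), and 4 did not pass. The summed level of the 8 was 3249 and 3002 CPM for NC against 3180 and 3207 CPM for KO. The leukocyte gene Cd3e had no count, and Ptprc and Adgre1 had at most 2. The 9 leukocyte markers summed to 51.5 and 50.9 CPM (counts scaled to the library total) in NC and to 66.6 and 75.6 CPM in KO. These sums came mainly from Cd68, a lysosomal glycoprotein gene, and Cd14, a monocyte receptor gene. Across NC 1, NC 2, KO 1 and KO 2, Cd68 was at 22.2, 24.4, 47.3 and 60.1 CPM. In the same order Cd14 was at 27.18, 23.04, 15.03 and 12.07 CPM. Only 3 of the 9 passed the filter. The 5 fibroblast markers summed to 1468 and 1479 CPM in NC and to 1608 and 1685 CPM in KO, nearly all from Dcn, while Lum had no count. The part of these marker differences in the galectin values was not tested.

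The coding stretch around the sugar contacts was compared between the members. Each line below gives 75 bases, 5′ to 3′ on the coding strand of GRCm38, from the transcript with the longest complete coding sequence in GENCODE M21, and all lie within 1 exon. Capitals mark the 5 codons of the conserved sugar-contact motif, read in frame as histidine, any residue, asparagine, proline and arginine.
Lgals1 (chr15:78929664-78929738, plus strand): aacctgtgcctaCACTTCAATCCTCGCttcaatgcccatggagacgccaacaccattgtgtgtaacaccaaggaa
Lgals2 (chr15:78851318-78851392, minus strand): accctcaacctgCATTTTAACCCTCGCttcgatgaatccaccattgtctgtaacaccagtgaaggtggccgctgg
Lgals3 (chr14:47384630-47384704, plus strand): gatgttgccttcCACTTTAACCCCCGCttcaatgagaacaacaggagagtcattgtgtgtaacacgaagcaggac
Lgals4, first copy (chr7:28835867-28835941, plus strand): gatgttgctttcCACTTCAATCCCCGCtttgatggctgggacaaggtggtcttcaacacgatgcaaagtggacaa
Lgals4, second copy (chr7:28841179-28841253, plus strand): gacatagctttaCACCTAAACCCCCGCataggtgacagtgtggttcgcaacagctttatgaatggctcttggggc
Lgals8, first copy (chr13:12454825-12454899, minus strand): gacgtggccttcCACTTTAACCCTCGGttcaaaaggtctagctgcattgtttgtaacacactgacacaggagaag
Lgals8, second copy (chr13:12447204-12447278, minus strand): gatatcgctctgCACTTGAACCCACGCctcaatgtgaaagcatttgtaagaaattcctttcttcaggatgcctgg
Lgals9, first copy (chr11:78973078-78973152, minus strand): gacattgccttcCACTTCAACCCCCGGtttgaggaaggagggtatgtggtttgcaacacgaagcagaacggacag
Lgals9, second copy (chr11:78965752-78965826, minus strand): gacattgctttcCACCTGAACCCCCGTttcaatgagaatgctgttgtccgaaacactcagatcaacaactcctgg
The motif occurred once in the coding sequences of Lgals1, Lgals2 and Lgals3 and 2 times in those of Lgals4, Lgals8 and Lgals9, which matches the prototype and chimera forms and the tandem-repeat form. The stretches were compared position by position with no gaps. The closest pair was the first copy of Lgals4 and that of Lgals9, with 54 of 75 bases identical. The second copies of Lgals8 and Lgals9 followed with 48. Members differ in spacing after the motif, which puts later bases out of register, so these counts do not rank relatedness. The copies inside Lgals9 shared 41 bases (54.7%), fewer than its second copy shared with that of Lgals8. No window of 50 bases in the annotated transcripts of 1 member occurred in another. The expected counts of all 6 members were whole numbers in every library, so no fractional assignment of reads was seen in them. The pseudogene Lgals1-ps2, which resembles Lgals1, held the only fractional counts of the 13 genes with a galectin symbol, 3.90 in KO 1 and 0.57 in KO 2.

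The levels of the 6 genes ran from 0.67 to 1714 in TPM (the authors' values, scaled by transcript length), and these allow levels to be compared between genes. Lgals1 was highest in every library, then Lgals3, then Lgals9, and Lgals4 was lowest in every library. Lgals2 stood above Lgals8 in both NC libraries and below it in both KO libraries. In bulk RNA, fewer cells expressing a gene and less RNA per cell cannot be told apart.

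**Figure D1:**
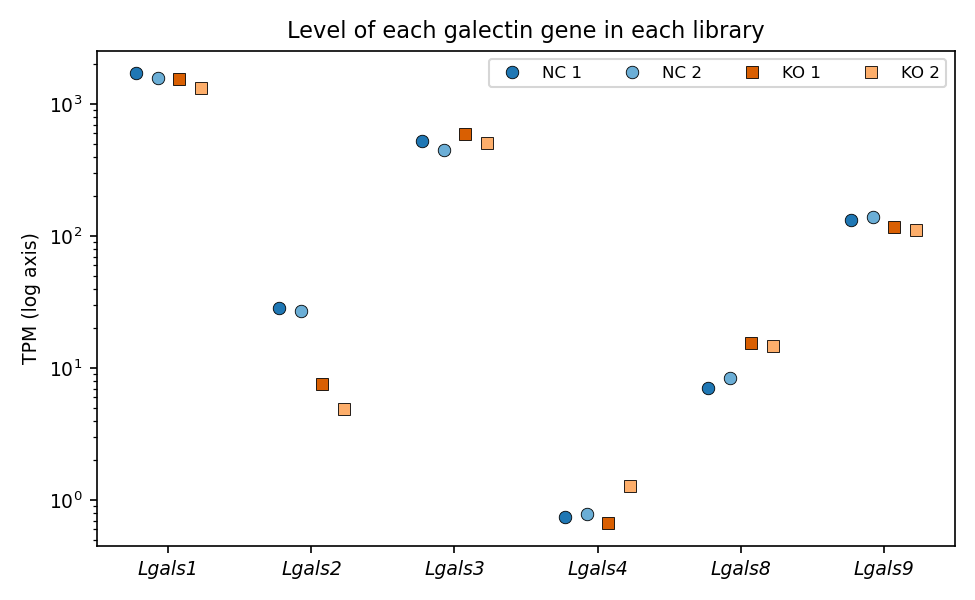
TPM of the 6 galectin genes on a log axis, 1 point for each library (circles NC, squares KO). Lgals1 lies between 1332 and 1714 in all libraries, while Lgals2 lies at 28.6 and 27.1 in NC and at 7.59 and 4.92 in KO and Lgals8 lies at 7.07 and 8.45 in NC and at 15.6 and 14.7 in KO.

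The prototype gene Lgals1 (ENSMUSG00000068220.6, chromosome 15, 78926725 to 78930465, plus strand, 2 transcripts) encodes galectin-1, which cross-links glycoproteins on T cells and is linked to their death and to regulatory T-cell function. The NC libraries held 10279 and 10967 counts of it and the KO libraries 9816 and 9045. The TPM was 1714 and 1590 in NC and 1554 and 1332 in KO. Both KO libraries lay below both NC libraries, but KO 1 and NC 2 were close. On the count scale the level was 848 ± 79.3 CPM (SD, n = 2) for NC against 707.3 ± 53.3 CPM (SD, n = 2) for KO, a log2 fold change of -0.26 (SE 0.10, 95% interval -0.46 to -0.06). Without NC 1 the value was -0.16, and without NC 2 it was -0.35. Lgals1 ranked between 78 and 91 by TPM among the 12510 genes in all 4 libraries.

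Lgals2 (ENSMUSG00000043501.5, chromosome 15, 78850860 to 78855529, minus strand) encodes galectin-2, best known from the epithelium of the gut, and has a single annotated transcript of 592 bases. The NC libraries held 108 and 117 counts of it and the KO libraries 30 and 21. Both KO libraries were far below both NC libraries, and the replicates lay close to each other beside that gap. The level was 8.97 ± 0.74 CPM (SD, n = 2) for NC against 1.92 ± 0.51 CPM (SD, n = 2) for KO, which is 4.66-fold higher in NC, with a log2 fold change of -2.22 (SE 0.27, 95% interval -2.78 to -1.67). On the TPM scale, where the ratio of the means was 4.45, its rank among the tested genes went from 3698 and 3965 in NC to 8072 and 9117 in KO. Only 11 of the 12510 genes, Lgals2 included, had a log2 fold change at or below its value. Leaving out single libraries gave values between -2.52 (without KO 1) and -1.97 (without KO 2).

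Lgals1 and Lgals2 lie on the same chromosome with 71196 bases between them, and their neighbours differed in direction. Lgals2 overlaps exons of Cdc42ep1, a gene for an effector of the small GTPase Cdc42, on the opposite strand. Cdc42ep1 was at 42.4 and 45.3 CPM in NC and at 58.6 and 55.7 CPM in KO, so it was higher where Lgals2 was lower, with a log2 fold change of 0.38 (SE 0.10). None of the 543 windows of 50 bases in the Lgals2 transcript occurred on the other strand of another gene's transcript. The nearest genes on either side of Lgals2 outside this overlap were Card10 (log2 fold change 0.31, SE 0.10) and Gga1 (-0.01, SE 0.09), and those beside Lgals1 were Pdxp (0.39, SE 0.15) and Nol12 (-0.37, SE 0.13).

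The chimera gene Lgals3 (ENSMUSG00000050335.17, chromosome 14, 47367751 to 47386160, plus strand, 6 transcripts) encodes galectin-3, which forms lattices with branched N-glycans at the cell surface and gathers on damaged lysosomes. The NC libraries held 4712 and 4859 of its counts and the KO libraries 5559 and 5425. The TPM was 528.7 and 450.3 for NC against 594.6 and 508.5 for KO. The groups overlapped, since KO 2 lay below NC 1 on the TPM scale. The level was 382.7 ± 45.0 CPM (SD, n = 2) for NC against 411.8 ± 14.4 CPM (SD, n = 2) for KO, a log2 fold change of 0.11 (SE 0.10, 95% interval -0.09 to 0.30). The interval includes no change and holds rises of up to 1.23-fold. Without NC 2 the value was -0.003, and without NC 1 it was 0.23.

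Among the tandem-repeat genes, Lgals9 (ENSMUSG00000001123.15, chromosome 11, 78962974 to 78984946, minus strand, 4 transcripts) had the highest level. The NC libraries held 1823 and 2234 counts of it and the KO libraries 1690 and 1739. The replicates were almost identical after scaling, at 160.3 and 161.3 CPM in NC and 128.3 and 128.7 CPM in KO, and the groups did not overlap. The log2 fold change was -0.32 (SE 0.09, 95% interval -0.51 to -0.14), or 1.25-fold higher in NC, and it lay between -0.34 and -0.26 under all alternatives run. The nearest gene before it, Nos2, which encodes the inducible nitric oxide synthase, had at most 1.85 CPM in any library.

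Lgals8 (ENSMUSG00000057554.13, chromosome 13, 12439415 to 12464944, minus strand, 10 transcripts) encodes galectin-8, which binds sugars on ruptured endosomes. Of the 6 genes it alone was higher in both KO libraries than in both NC libraries. The NC libraries held 168 and 210 of its counts and the KO libraries 275 and 311. The level was 14.97 ± 0.27 CPM (SD, n = 2) for NC against 21.95 ± 1.52 CPM (SD, n = 2) for KO, a log2 fold change of 0.55 (SE 0.14, 95% interval 0.27 to 0.83), or 1.47-fold. On the TPM scale the difference was larger, 7.76 ± 0.98 in NC against 15.16 ± 0.60 in KO (SD, n = 2), a ratio of 1.95.

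The step from 1.47-fold in counts to 1.95-fold in TPM came with a shorter deposited length. The KO to NC ratio was higher in TPM than in CPM for the other members too. For Lgals2, whose length was 592 bases in every library, it was 0.225 against 0.214. The length column averages the annotated transcripts of a gene by their estimated abundance, and for Lgals8 it was 2463 and 2247 bases for NC against 1794 and 1975 bases for KO. Both KO libraries were below both NC libraries, by 471 bases on the means, a ratio of 0.80. The annotated transcripts run from 289 to 2843 bases: 5 of the 6 coding forms have 2416 to 2843 bases, the sixth, Lgals8-208, has 1148, and 3 forms retain an intron. The gene-level files do not say which of them differed. Among 10657 tested genes with several transcripts the length of 3931 (36.9%) did not overlap between the groups, 22.2% were shorter in both KO libraries, and 318 (2.98%) had a shortening in KO at least as large as that of Lgals8. The lengths of Lgals1, Lgals3 and Lgals9 had KO to NC ratios between 0.997 and 1.0. Those of Lgals1 and Lgals9 did not overlap either, but Lgals1 had 799.63 and 799.82 bases in NC and 799.62 and 799.4 in KO. For Lgals4 the ratio was 0.991, but its few counts leave its length poorly determined. It was 743 and 1384 bases in NC and 1160 and 949 bases in KO.

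**Figure D2:**
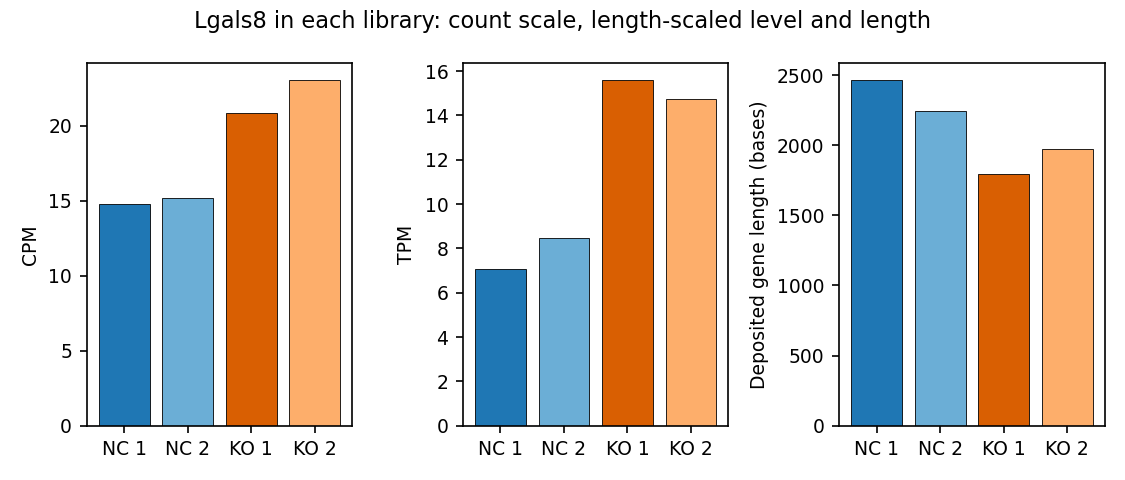
Lgals8 in each library as CPM, as TPM and as deposited gene length in bases, with all axes starting at 0. KO is higher than NC in CPM (14.8 and 15.2 in NC, 20.9 and 23.0 in KO) and further apart in TPM, while the length is shorter in KO.

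The opposite strand of Lgals8 holds Heatr1, a gene for a factor of ribosome biogenesis, which overlaps its exons. Of the 3820 windows of 50 bases in Lgals8 transcripts, 107 (2.80%) occurred on the other strand in Heatr1 and 41 (1.07%) on the same strand in AC107765.2. Whether the counting used strand is not given in the sources used here, so such reads are uncertain. Heatr1 differed the other way, from 59.9 and 65.3 CPM in NC to 38.0 and 33.5 CPM in KO, a log2 fold change of -0.81 (SE 0.10).

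Lgals4 (ENSMUSG00000053964.17, chromosome 7, 28833854 to 28841708, plus strand, 7 transcripts) encodes galectin-4, a gut-epithelial galectin that sorts glycoproteins to the apical membrane. It was close to the limit of detection, with 4 and 11 counts among the NC libraries and 7 and 11 among the KO libraries. The groups overlapped. At 0.19 on the log2 scale (95% interval -1.05 to 1.42, SE 0.60) the difference covers falls and rises of more than 2-fold, and it was 0.93 without NC 2, -0.23 without NC 1 and -0.15 without KO 2. A difference was not detectable at this depth. The gut transcription factor genes Cdx1 and Cdx2 had 0 counts and 1 count over all libraries, while Vil1 and Krt20, which encode structural proteins of gut epithelium, had at least 2555 and 1169 counts in each.

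**Figure D3:**
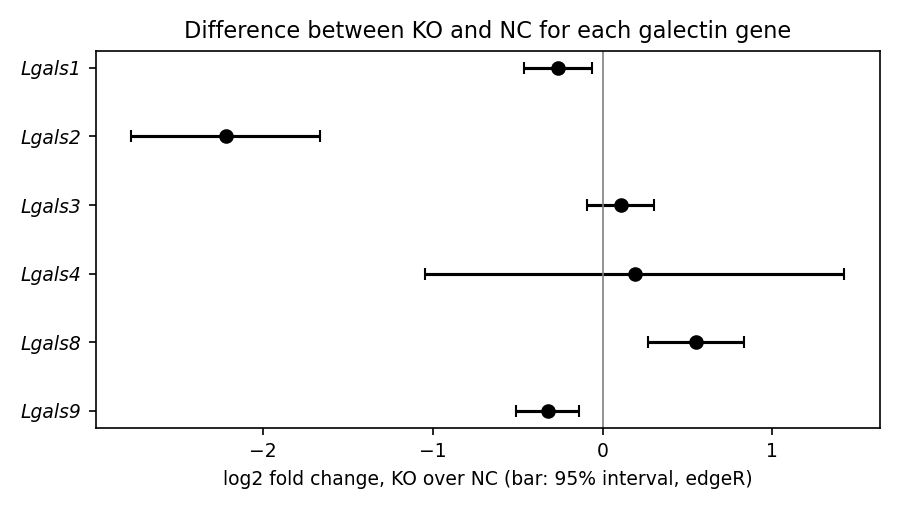
log2 fold change between KO and NC of the 6 galectin genes (points) with 95% intervals from edgeR (bars). The intervals of Lgals1, Lgals2 and Lgals9 lie below 0, that of Lgals8 lies above 0, and those of Lgals3 and Lgals4 include 0. The genes were chosen with this contrast known, so the intervals are a description and no test.

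Since the members were chosen with this contrast known, nothing is read from the counts that follow. At the threshold used for all genes, an adjusted p of 0.05, the members counted 4 of 6, 1 higher and 3 lower in KO, where 37.9% of all 12510 tested genes passed (19.7% higher and 18.2% lower). KO and NC were fully apart for 4 of 6 members, against 69.4% of all tested genes (34.8% higher and 34.7% lower). On the log2(TPM + 1) scale limma called 2158 genes, 1467 higher and 691 lower. By member, the prototype genes Lgals1 and Lgals2 were both lower in KO by different amounts. Of the tandem-repeat genes Lgals8 was higher, Lgals9 was lower and the groups overlapped for Lgals4.

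Summed over the 6 genes, galectin transcripts came to 2412 and 2218 TPM for NC against 2289 and 1974 TPM for KO, so the groups overlapped in this total. In CPM the total was 1503.5 and 1328.5 for NC against 1319 and 1225.4 for KO. There both KO libraries lay below both NC libraries, with KO 1 and NC 2 close. The make-up of the pool in TPM differed. Lgals1 held 71.1% and 71.7% of it in NC and 67.9% and 67.5% in KO. Lgals3 held 21.9% and 20.3% in NC and 26% and 25.8% in KO. The ratio of Lgals1 to Lgals3 was therefore 3.24 and 3.53 in NC and 2.61 and 2.62 in KO, with no overlap, although the groups overlapped for Lgals3 itself. Lgals9 held between 5.11% and 6.35% in all libraries. The ratio of Lgals9 to Lgals8 in TPM went from 18.8 and 16.7 in NC to 7.5 and 7.59 in KO. This includes the shorter deposited length of Lgals8 in KO, which was 1.95-fold higher there in TPM but 1.47-fold in CPM. Lgals2 held 1.18% and 1.22% in NC and 0.33% and 0.25% in KO.

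**Figure D4:**
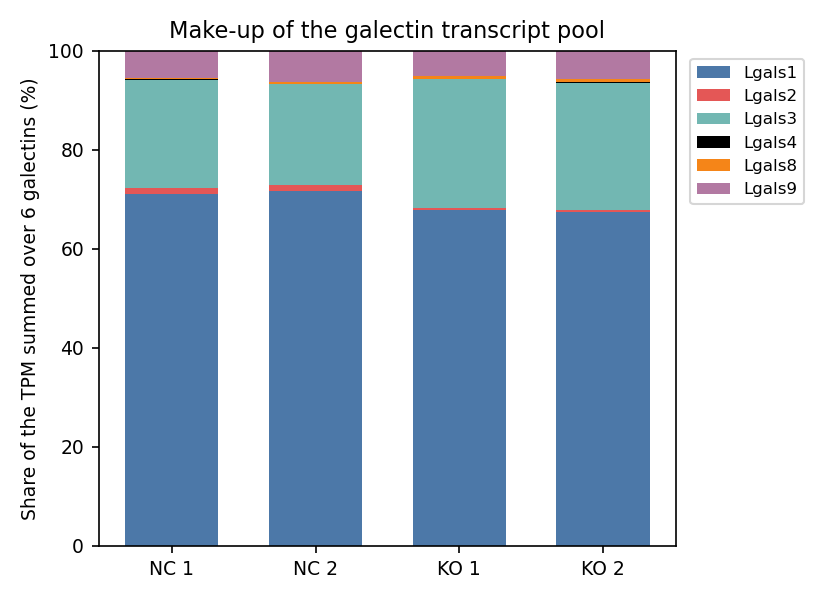
Share of each gene in the TPM summed over the 6 galectins (percent), 1 bar for each library. Lgals1 and Lgals3 together fill over 90% of each bar, and the Lgals1 part is smaller in both KO libraries (67.9% and 67.5%) than in both NC libraries (71.1% and 71.7%).

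Most other galectin-family genes were at or near 0. Grifin, a galectin-related gene of the eye lens, had 1 to 3 counts in each library, Lgals7 had 4 counts in NC 1 and none elsewhere, and Lgals12, a galectin gene of fat cells, and the pseudogene Lgals1-ps1 had none. Lgalsl, which encodes a galectin-related protein, was at 17.4, 16.6, 17.4 and 18.1 CPM in NC 1, NC 2, KO 1 and KO 2 (log2 fold change 0.06). Its groups overlapped.

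Promoters were examined because Lgals8 differed in direction from Lgals2 and Lgals9. The lines below give 220 bases of RefSeq promoter sequence (GRCm38.p6), from 250 to 31 bases before the start site, 5′ to 3′ on the gene's strand. Capitals mark matches to the motifs searched on both strands: the core promoter motif TATAAA, the GC box motif GGGCGG, the motif CCAAT, the AP-1 motif TGAGTCA, the SMAD palindrome GTCTAGAC, the E-box motif CACGTG, and the interferon response core, which is GAAA followed after any 2 bases by a second GAAA.
Lgals2 (chr15:78855560-78855779, minus strand): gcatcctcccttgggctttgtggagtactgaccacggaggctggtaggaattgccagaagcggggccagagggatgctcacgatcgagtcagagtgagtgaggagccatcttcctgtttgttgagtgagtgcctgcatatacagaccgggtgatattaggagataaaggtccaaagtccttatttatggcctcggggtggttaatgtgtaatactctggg
Lgals8 (chr13:12461769-12461988, minus strand): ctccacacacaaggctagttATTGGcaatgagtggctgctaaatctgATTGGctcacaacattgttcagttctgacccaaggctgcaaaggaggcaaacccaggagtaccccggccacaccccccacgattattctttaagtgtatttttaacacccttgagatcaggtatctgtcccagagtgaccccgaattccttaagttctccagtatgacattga
Lgals9 (chr11:78984955-78985174, minus strand): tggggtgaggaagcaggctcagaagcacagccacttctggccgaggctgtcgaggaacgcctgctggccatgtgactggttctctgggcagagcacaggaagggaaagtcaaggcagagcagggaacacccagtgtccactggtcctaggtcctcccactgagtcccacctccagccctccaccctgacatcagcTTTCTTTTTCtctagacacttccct
Lgals9 held the interferon response core 55 bases before its start site, on the strand opposite to the gene, and 2.63% of the 32851 promoter windows in the table held that motif. Lgals8 held a pair of CCAAT boxes at 230 and 203 bases, a motif in 31.0% of the windows, and Lgals2 held none of the 7. The Lgals8 window lies before the start site at 12461738, which only a single annotated coding form has. The other Lgals8 coding forms start at 12464944 or between 12461493 and 12461506, and windows placed on these start sites were not examined. The SMAD palindrome, which occurs in 0.158% of the windows, was in no window of the 5 members in the table. Lgals3 and Lgals4 each held 1 CCAAT box, at 167 and 59 bases. A match is a stretch of letters in this window and no measure of binding.

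Galectins bind galactose at the ends of glycan branches, so genes that build these branches were examined next. The list of glycan branching and extension has 23 genes, mostly of N-glycans. It also holds genes of other glycans, among them the O-glycan genes C1galt1, C1galt1c1 and Gcnt1. Of the 23 genes 18 passed the filter, 1 rose and 4 fell in KO (27.8% called, against 37.9% of all genes). The median log2 fold change was -0.12 against -0.004 over all tested genes. Unless another fit or a left-out library is named, adjusted p-values from here on are Benjamini-Hochberg values of edgeR's quasi-likelihood test over all 12510 genes. B4galt5, a galactosyltransferase gene, fell from 201.9 and 237.7 CPM in NC to 120.4 and 121.8 CPM in KO. This was a fall by 0.86 on the log2 scale (adjusted p = 8.85e-08 with SE 0.10). Which glycans its enzyme acts on in these cells was not measured. C1galt1, which adds the galactose of core 1 O-glycans, stood at -0.53 on the log2 scale (adjusted p = 0.00019 with SE 0.10), Mgat2, which starts the second antenna of N-glycans, at -0.42 (adjusted p = 0.00167 with SE 0.10), and B4galt1, the main galactosyltransferase gene of N-glycans, at -0.38 (adjusted p = 0.00147 with SE 0.09). The riser was Gcnt2, which branches poly-N-acetyllactosamine, from 34.5 and 35.0 CPM to 52.3 and 63.1 CPM (log2 fold change 0.73, adjusted p = 6.49e-06 with SE 0.11). Mgat5, which makes the branch favoured by galectin-3 and is named after its values were seen, was at 117.5 and 128.9 CPM in NC and at 117.4 and 120.2 CPM in KO (log2 fold change -0.05, adjusted p = 0.686 with SE 0.09). On the log2(TPM + 1) scale Gcnt2 alone of the list passed, and B4galt5 had a value of -0.33 (limma, adjusted p = 0.304). Gcnt2 and Mgat2 share exonic bases with antisense genes.

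Sialic acid caps the galactose that galectins bind, and the linkage decides which galectins still bind. Of the 11 sialylation and bisecting genes all were tested, 3 rose and 2 fell (45.5% called, against 37.9% of all genes), with a median of -0.10. St3gal1, whose enzyme caps core 1 O-glycans with alpha-2,3-linked sialic acid, rose from 93.1 and 99.7 CPM in NC to 243.5 and 269.1 CPM in KO (log2 fold change 1.41, adjusted p = 7.12e-12 with SE 0.09). St3gal2 rose by 0.35 (adjusted p = 0.00428 with SE 0.09). St3gal3 stood at 0.42 on the log2 scale (adjusted p = 0.0282 with SE 0.15), a call lost with DESeq2 (adjusted p = 0.129), without NC 1 (0.309) and without KO 1 (0.168). The 2 that fell were St3gal6 (-0.65, adjusted p = 0.000473 with SE 0.14) and St6gal1 (-0.38, adjusted p = 0.00332 with SE 0.10), which encodes the alpha-2,6-sialyltransferase whose product blocks galectin-1 binding. St6gal1 missed the threshold without NC 2 (adjusted p = 0.0582), and on the log2(TPM + 1) scale St3gal1 alone of the list passed. St3gal6 and St6gal1 share exonic bases with antisense genes.

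Glycoproteins known to bind galectins were examined next. Their list has 22 genes, of which 18 passed the filter, 7 rose and 1 fell (44.4% called, against 37.9% of all genes, of which 19.7% higher and 18.2% lower), and the median was 0.19. Fn1, which encodes fibronectin, rose from 3469 and 4180 CPM to 6782 and 7327 CPM (log2 fold change 0.88, adjusted p = 2.33e-07 with SE 0.10). Lamc1, a laminin chain gene, rose by 0.66 (adjusted p = 5.42e-06 with SE 0.10), and P4hb, whose protein disulfide isomerase binds galectin-9 at the T-cell surface, by 0.56 (adjusted p = 3.17e-05 with SE 0.09). The integrin gene Itga5 rose by 0.38 (adjusted p = 0.00242 with SE 0.09). Muc1, a mucin gene, had few counts, 4 and 7 for NC against 24 and 31 for KO (log2 fold change 2.22, adjusted p = 0.000732 with SE 0.54). Lgals3bp, whose secreted glycoprotein binds galectin-3, was at 114.1 and 128.7 CPM in NC and at 156.7 and 154.1 CPM in KO (log2 fold change 0.36, adjusted p = 0.00372 with SE 0.09), and missed the threshold without NC 1 (adjusted p = 0.0841). The gene that fell was Lamp1, a lysosomal membrane glycoprotein (-0.26, adjusted p = 0.0235 with SE 0.09), named after its value was seen; it missed the threshold without NC 1 (0.0595), without NC 2 (0.139) and with limma on log2(TPM + 1) (0.197) and log2(TPM + 0.1) (0.199). Without NC 1 the list had 5 calls, all higher. Havcr2, the gene of TIM-3, had 0, 1, 8 and 0 counts across NC 1, NC 2, KO 1 and KO 2, and is named after its values were seen. Of the 5 fibroblast markers 2 were tested: Col1a1, a collagen gene, rose from 6 and 5 counts in NC to 38 and 41 in KO (adjusted p = 3.05e-05), and Dcn had a log2 fold change of 0.16 (adjusted p = 0.193). Their part in the result was not tested. Fn1 and Lamp1 share exonic bases with antisense genes.

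Genes that act with galectins at damaged vesicles moved both ways. Their list has 20 genes, of which 18 passed the filter, 6 rose and 3 fell (50% called, against 37.9% of all genes), and the median was 0.04. Slc38a9, a lysosomal amino-acid sensor gene, rose from 4.22 and 5.42 CPM to 9.26 and 9.62 CPM (log2 fold change 0.96, adjusted p = 0.000548 with SE 0.21). The autophagy receptor genes Nbr1 (0.42, adjusted p = 0.000684 with SE 0.09) and Sqstm1 (0.28, adjusted p = 0.0173 with SE 0.09) rose as well. Among those that fell, Ubxn6 stood at -0.57 on the log2 scale (adjusted p = 9.21e-05 with SE 0.10) and Vcp, the segregase gene it serves, at -0.32 (adjusted p = 0.00971 with SE 0.09). Tfeb, the lysosomal transcription factor gene, had -0.50 (adjusted p = 0.00157 with SE 0.12). Calcoco2, the gene of the autophagy receptor NDP52, had at most 5 counts in any library and was not tested. It is named after its values were seen. Without NC 2 the list had 5 calls, 3 higher and 2 lower; Sqstm1 (adjusted p = 0.143) and Vcp (0.0582) were then not called, and neither was Vcp without KO 2 (0.103). With limma on log2(TPM + 1) 5 genes of the list passed, Vcp (adjusted p = 0.171) and Sqstm1 (0.0884) not among them, and on log2(TPM + 0.1) 4 passed, with Slc38a9 at 0.0505. Ubxn6, Vcp, Slc38a9 and Sqstm1 share exonic bases with antisense genes.

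**Figure D5:**
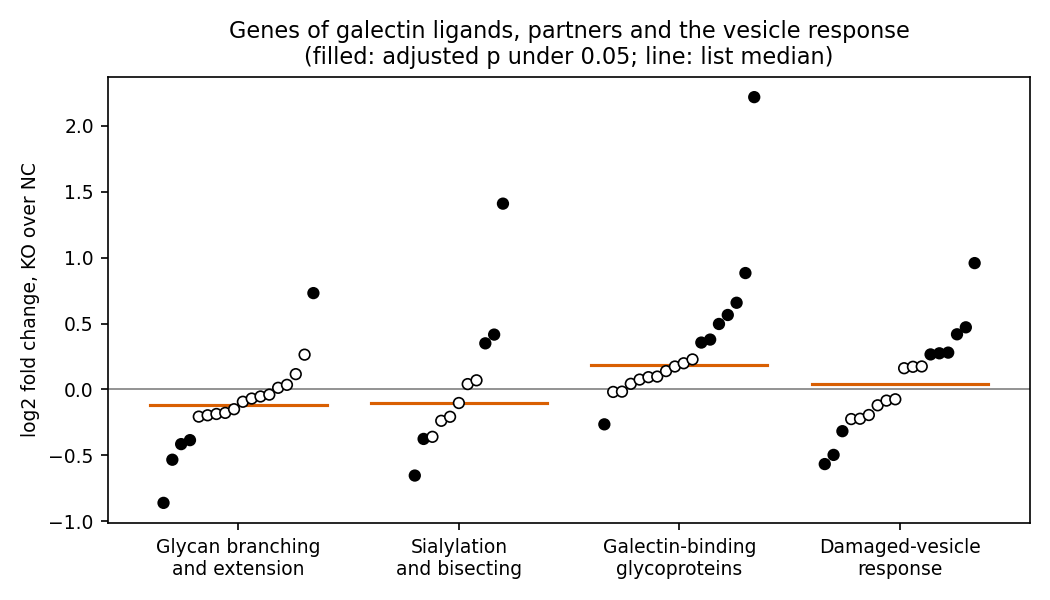
log2 fold change between KO and NC of each tested gene in the 4 lists, with filled points for adjusted p under 0.05 (edgeR) and a line at each list's median. The galectin-binding glycoproteins have the highest median, 0.19, and the highest single values are Muc1 (2.22) and St3gal1 (1.41).

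Genes with the profile most like each galectin were found by the smallest Euclidean distance between centred log2 CPM profiles over the 4 libraries. For Lgals2 these were Sult1c2 (distance 0.23, log2 fold change -2.08), a sulfotransferase gene, and Bdh1 (distance 0.32, log2 fold change -2.06), a ketone body dehydrogenase gene. For Lgals8 they were Irgq and Clcn3 with distances of 0.015 and 0.019, and for Lgals9 Tm9sf1 and Naa40 with 0.0057 and 0.015. Dcaf15 and Atad3a were nearest to Lgals1, Zfp800 and Tmem179 to Lgals3, and AI197445 and Gcnt4 to Lgals4. With 4 libraries many profiles are alike, so these names describe the pattern only.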

How the data were processed

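RNA-seq of 4 Hepa1-6 cultures was analysed from 1 file per sample. The submitters' processing notes list FastQC, STAR, RSEM and DESeq2 and the builds GRCm38 and mm10, with no role or order; versions, annotation release and strand setting are not given in the sources used here. Per the file headers, the deposited values are RSEM-type expected counts, TPM and gene lengths for 54838 genes. The authors' TPM are scaled by effective length, and the deposited length and effective length are other columns of the same files.

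Expected counts were rounded, filtered with filterByExpr and scaled by TMM (factors 0.981 to 1.02). KO was compared with NC by edgeR's quasi-likelihood test (edgeR 4.0.16, R 4.3.3), with group as the only term and Benjamini-Hochberg adjustment over 12510 genes at 0.05. SEs came from the fitted weights, and the code was tested on simulated counts. CPM are counts over the TMM-scaled library size, and profiles used a prior count of 2. Intervals cover counting error and shared spread, and PCR copies were not separated. Alternatives used DESeq2 1.42.0, limma 3.58.1 on log2(TPM + 1) or log2(TPM + 0.1), other scaling and filters, a replicate block and leaving out each library.

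Of the gene IDs, 53861 matched GENCODE M21 with version. The members and the gene lists, written from general knowledge, were chosen with earlier results of these data known. Named were the 6 members, their relatives, neighbours and 2 nearest profiles (predicted genes left out), Acvr2a, and up to 6 called genes per list with the lowest p. Promoter windows came from RefSeq, where 5 of 6 members had an entry (not Lgals1).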

Additional observations from a re-analysis of the deposited data

How the results depend on the processing

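The direction of Lgals1, Lgals2, Lgals8 and Lgals9 was kept under all 11 alternatives run. KO and NC did not overlap for these genes, so leaving out a library could not turn their direction. The other alternatives used the same 4 libraries, so this is no independent support. That of Lgals3 turned to -0.003 without NC 2, and Lgals4 had negative values without NC 1 (-0.23) and without KO 2 (-0.15). Of these 4 the largest move was that of Lgals8 on the TPM scale (0.89 with pseudocount 1, with or without a filter, and 0.96 with pseudocount 0.1). Genes past the threshold numbered 4741 (2459 higher, 2282 lower) and stayed within 1.5 times of that with DESeq2 (3217), median-ratio scaling (4752), no filter (4730) and single libraries left out (3586 to 4472). On log2(TPM + 1) and log2(TPM + 0.1), limma called 2158 (1467 higher, 691 lower) and 2099 (1427 higher, 672 lower). These fits called 1 and 1 of the branching genes, 1 and 1 of the sialylation genes, and 5 and 4 of the vesicle genes; the cause was not tested. With limma on log2(TPM + 1) without a filter, 0 of 20640 genes passed, so 0 in each list, and 4506 had an unadjusted p under 0.05. Leaving out single libraries gave 5 to 7 branching genes, 4 to 5 sialylation genes, 5 to 9 glycoprotein genes and 5 to 8 vesicle genes.

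The titles give both groups the numbers 1 and 2. The deviations of same-numbered samples were not correlated (r = -0.0116 across 12510 genes, which are not independent replicates). No shared effect of the number was seen, but the labels do not say whether same-numbered samples were handled together. With the replicate block 5006 genes passed, with 6 branching, 5 sialylation, 8 glycoprotein and 9 vesicle genes.

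In CPM in place of TPM, which weights long transcripts more, the galectin shares in NC 1, NC 2, KO 1 and KO 2 moved. Lgals1 held 60.1%, 59.6%, 56.5% and 54.6%, and Lgals3 27.6%, 26.4%, 32.0% and 32.8%. Lgals9 held 10.7%, 12.1%, 9.73% and 10.5%, and Lgals8 0.983%, 1.14%, 1.58% and 1.88%. Lgals2 held 0.632%, 0.636%, 0.173% and 0.127%, and Lgals4 0.0234% and 0.0598% in NC. With 2 libraries a group the spread is poorly known, and depth limits Lgals4 most.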
